A study of Homo sapiens with 15 samples.

Results

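The genes described here are a set of 36 that run glycolysis or respond to low oxygen, chosen by name and matched on the gene symbol in the deposited tables of cell lines and of YBX1 knockdown. Of these, 35 were found among the 12995 genes of the tables, and CA9 was not analysed here. RNA was read from 15 libraries in 5 groups of 3: the normal oral epithelial line OKF6, and the oral cancer lines SCC15 and SCC25, each with YBX1 (+YBX1) and after its knockdown (–YBX1). Read by their titles, the +YBX1 and –YBX1 cells of a line carry the same lentiviral Cas9 and inducible guide RNA constructs against YBX1. Cells with these constructs were sorted on GFP and mCherry. The paper, however, calls the SCC25 +YBX1 cells of its transcriptome comparison parental, and the labels do not settle which holds. The –YBX1 cells received doxycycline at 1 µg/ml for 3 days and the +YBX1 cells none. Doxycycline and loss of YBX1 therefore cannot be told apart. The genotype label is YBX1 knockout for the –YBX1 cells and wild type for all others, though the titles of the +YBX1 cells also read YBX1KO, with DOXneg. The labels give 3 days for every group and name no construct for OKF6. The edited cells are a sorted and expanded population, not 1 clone. SCC15 was grown in DMEM with foetal bovine serum, whereas SCC25 and OKF6 were kept in serum-free keratinocyte medium, so that line, medium and, against OKF6, construct cannot be told apart. No group was kept at low oxygen. The labels do not say that replicates came from separate cultures, so the p-values measure the spread between these libraries.

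Glycolysis splits glucose into pyruvate in the cytoplasm, and lactate dehydrogenase turns pyruvate into lactate when it does not enter mitochondria. When oxygen is short, prolyl hydroxylases of the EGLN family no longer mark the factor HIF-1α for destruction, and it then switches on glucose transporters, most glycolytic enzymes and genes for pH control, mitophagy and collagen hydroxylation. Oral carcinomas are known for raised glucose uptake and for hypoxic regions in which these genes are used as markers. The amount of HIF-1α is set mainly at the protein level, which was not measured here.

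Values are log2 CPM, reads relative to the normalised size of their library. They come from a 3′ end assay that reads each transcript near its end, so a level does not grow with gene length. Libraries held 4075290 to 6118501 counted reads. The 14 keratinocyte markers checked (keratins, TP63, desmosome and hemidesmosome genes) summed to 28610 to 39890 CPM in OKF6 and 14100 to 25920 CPM in SCC25 +YBX1, but to only 26.5 to 63.1 CPM in SCC15 +YBX1, with 2 of the 14 at or under 3 reads in each of its libraries. The epithelial label of SCC15 was thus not borne out by these markers. The 9 measured mesenchymal markers also summed lowest there, to 466 to 519 CPM in SCC15 +YBX1, 995 to 2000 in OKF6 and 2570 to 3318 in SCC25 +YBX1. Single genes of that list went both ways from OKF6, with FN1 lower (mean 4.12 against 9.93 log2 CPM) and ZEB1 higher (4.24 against −2.84). Both marker sums move with each difference of SCC15 given here, and their part in it was not tested. Replicate 1 of OKF6 stood apart: its mean correlation with its own group over 6497 genes was 0.845, against 0.876 and 0.896 for the other OKF6 libraries and at least 0.933 elsewhere. Results that rest on OKF6 are also given without it where its removal changed a call. The comparisons of SCC15 and SCC25 with OKF6 share the OKF6 libraries, and that of SCC15 with SCC25 shares the cancer line libraries, so their values are set side by side only. In bulk RNA, fewer cells of a kind and less RNA per cell cannot be told apart.

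The module spanned a wide range of levels (heatmap of all members by library). PKM, ENO1, GAPDH, LDHA, LDHB, ALDOA and TPI1 lay at 8 log2 CPM or above in every library, whereas EGLN3 and PGAM1 stayed under 2. EGLN3 had 0 reads in 2 OKF6 libraries and ENO2 in 1. PGAM1, with 3 to 24 reads per library, could not be read with certainty, since 82.6% of 75-base pieces of its last 500 bases matched other loci of hg38 as well as its own. The same share was 16.3% for GAPDH and BNIP3, 12.8% for PGK1 and HK2, 10.5% for LDHB, between these for ENO1 and under 5% for all other members with a value.

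**Figure D1:**
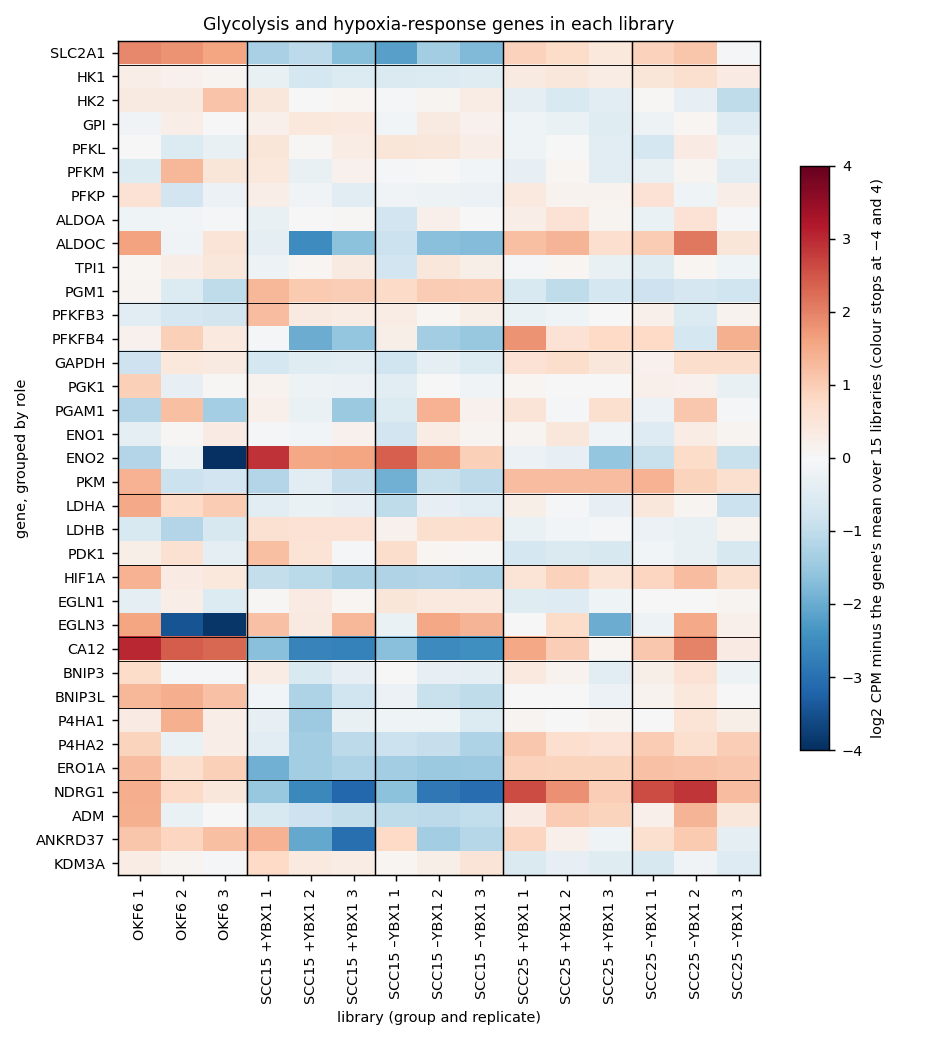
Heatmap of log2 CPM of the 35 members in all 15 libraries, each gene shown as the difference from its mean over the libraries (red higher, blue lower, colour scale ending at −4 and 4). SLC2A1, CA12, NDRG1, ERO1A and HIF1A are blue in all 6 SCC15 libraries, whereas most glycolytic enzymes stay pale.

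To ask how the oral cancer lines differ from the normal line, SCC15 +YBX1 was compared with OKF6. The glucose transporter, HIF1A and most hypoxia-response members were lower in SCC15, while the central enzymes of glycolysis mostly did not pass the test. Of 35 members, 13 were lower and 5 higher past the threshold (limma, Benjamini-Hochberg adjusted p under 0.05, with all genes tested). Across all genes 23.4% were lower and 26.9% higher, beside 51.4% of the members that differed in either direction and 50.3% of all genes. The median difference was −0.42 over the members and 0.10 over all genes. Without OKF6 replicate 1, 14 members were lower and 6 higher, 57.1% of members beside 57.2% of all genes. The added lower member was GAPDH. The added higher member was EGLN3, which is then set against 0 reads in both remaining OKF6 libraries.

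The largest deficit among members against OKF6 was that of CA12, a membrane carbonic anhydrase that helps export acid (gene at chr15:63321378-63381846 of hg38, GENCODE v44). CA12 stood at 8.89, 8.31 and 8.17 log2 CPM in OKF6, at 7.44, 6.86 and 5.96 in SCC25 +YBX1 and at 4.21, 3.23 and 3.17 in SCC15 +YBX1. The 3 lines did not overlap. The log2 difference was −4.92 ± 0.39 (SE) for SCC15 against OKF6 (limma, adjusted p = 2.35e-06) and −3.22 ± 0.39 against SCC25 (adjusted p = 6.89e-05). SCC25 was also below OKF6, by a log2 difference of −1.70 ± 0.39 (limma, adjusted p = 0.0084).

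NDRG1, a stress-responsive gene widely used as a hypoxia marker, reached 10.14, 9.45 and 9.16 log2 CPM in OKF6 and 11.30, 10.53 and 9.67 in SCC25 +YBX1. The SCC15 +YBX1 libraries stood at 7.17, 6.12 and 5.57. Every SCC15 library lay under every library of the other lines. The log2 difference of SCC15 was −3.29 ± 0.47 from OKF6 (limma, adjusted p = 0.00017) and −4.21 ± 0.47 from SCC25 (adjusted p = 3.63e-05). For SCC25 against OKF6 it was 0.92 ± 0.47 and did not pass the test.

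SLC2A1 encodes GLUT1, the main glucose transporter of epithelial cells (hg38 chr1:42925353-42958893). Its levels were 8.84, 8.71 and 8.48 log2 CPM in OKF6, 7.82, 7.63 and 7.34 in SCC25 +YBX1 and 5.60, 5.87 and 5.19 in SCC15 +YBX1. The lines kept this order without overlap. SCC15 was at 0.115 times the OKF6 level (log2 difference −3.12 ± 0.22, limma adjusted p = 9.22e-07) and SCC25 at 0.474 times (−1.08 ± 0.22, adjusted p = 0.00417).

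HIF1A, the gene for HIF-1α itself (hg38 chr14:61695513-61748259), read 8.19, 7.13 and 7.22 log2 CPM in OKF6 and 7.35, 7.73 and 7.35 in SCC25 +YBX1, which overlap. In SCC15 +YBX1 it was at 5.84, 5.72 and 5.52. The log2 difference of SCC15 was −1.82 ± 0.27 from OKF6 (limma, adjusted p = 0.00023), or −1.48 without OKF6 replicate 1, and −1.78 ± 0.27 from SCC25 (adjusted p = 0.00034). Between SCC25 and OKF6 it was −0.04, with a 95% interval of −0.64 to 0.56. Of the HIF prolyl hydroxylases, EGLN1 differed from OKF6 by 0.38 in SCC15 and −0.17 in SCC25, and neither passed. EGLN3 was too low to compare with 19, 0 and 0 reads in the OKF6 libraries.

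**Figure D2:**
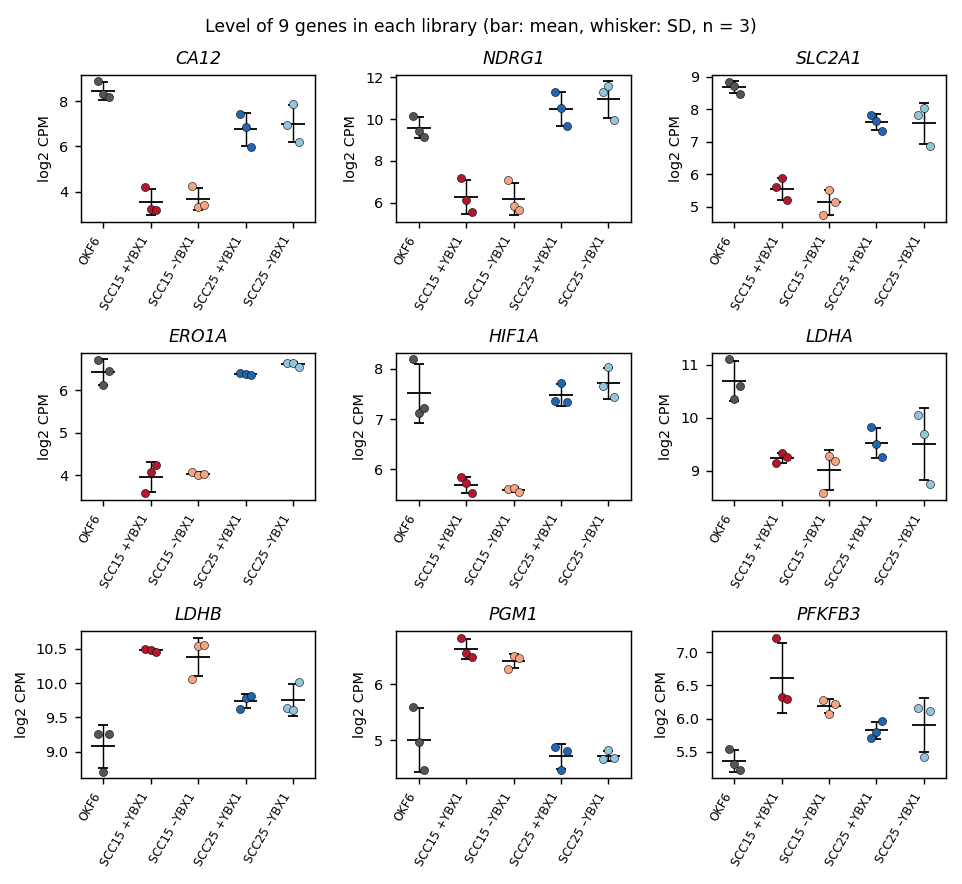
Log2 CPM of 9 members in each library of the 5 groups (points), with the group mean (bar) and SD (whisker, n = 3). CA12, NDRG1, SLC2A1, ERO1A and HIF1A are low in both SCC15 groups, LDHA is highest in OKF6, and LDHB, PGM1 and PFKFB3 are higher in SCC15 +YBX1 than in OKF6 and SCC25 +YBX1.

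Among the 10 hypoxia-response members measured (pH control, mitophagy, collagen hydroxylation and oxidative folding, and others), 7 were lower in SCC15 than in OKF6, 0 were higher and 3 did not pass, with a median log2 difference of −1.69. Of all genes 23.4% were lower and 26.9% higher. Over the alternatives 5 to 8 were lower, with 5 without SCC15 +YBX1 replicate 2, 6 with library medians set equal and 8 with a replicate block, and 0 higher. ERO1A, an oxidase of the endoplasmic reticulum, stood at 6.71, 6.11 and 6.44 log2 CPM in OKF6, at 6.41, 6.38 and 6.37 in SCC25 +YBX1 and at 3.58, 4.08 and 4.25 in SCC15 +YBX1. Its difference was −2.45 ± 0.23 from OKF6 (limma, adjusted p = 8.17e-06), and SCC25 and OKF6 differed by −0.04, with a 95% interval of −0.55 to 0.48. The collagen prolyl hydroxylase subunits P4HA1 and P4HA2 were lower in SCC15 by log2 differences of −1.36 and −1.24. P4HA1 lost its call without SCC15 +YBX1 replicate 2 (−0.98, adjusted p = 0.064, limma).

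Both mitophagy receptors are HIF targets, but only 1 passed. BNIP3L read 6.77, 6.90 and 6.62 log2 CPM in OKF6, 5.47, 5.46 and 5.22 in SCC25 +YBX1 and 5.35, 4.22 and 4.65 in SCC15 +YBX1, below OKF6 in all 6 cancer line libraries. The log2 difference from OKF6 was −2.03 ± 0.27 in SCC15 (limma, adjusted p = 9.98e-05) and −1.38 ± 0.27 in SCC25 (adjusted p = 0.00357). BNIP3 differed from OKF6 by −0.42 and −0.18 and did not pass. ADM, the vasodilator adrenomedullin, was lower in SCC15 than in OKF6 by −1.197 (limma, adjusted p = 0.029), or by −0.68 (adjusted p = 0.0497) without OKF6 replicate 1, which at 6.08 log2 CPM lay above the other OKF6 libraries at 4.40 and 4.66. The ADM call was lost with either other scaling, with only the compared groups in the fit and without any 1 SCC15 library (largest adjusted p = 0.083 over all alternatives). ANKRD37 ranged from 2 to 45 reads within SCC15 +YBX1, and the histone demethylase KDM3A differed from OKF6 by 0.37 in SCC15. Neither passed.

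Hypoxia response elements carry a core of ACGTG or GCGTG, the letters HIF binds. These were counted on both strands in the RefSeq windows (GRCh38.p14) of 250 bases before to 50 bases after a start site, 1 window a gene, found for 33 of the 35 members (not for BNIP3L and NDRG1). Either core was in 72.7% of the members' windows, in 63.6% of the windows of all genes in the tables and in 48.4% of all 27305 windows. ACGTG alone was in 39.4% of the members' windows and 26.7% of those of all genes in the tables. Among members lower in SCC15 than in SCC25, 3 of 11 windows held ACGTG, against 9 of 16 among members that did not differ between these lines. GCGTG went the other way, in 8 of 11 windows against 6 of 16. Either core was in 81.8% against 68.8%. These are descriptions of letters and say nothing of binding. Windows are printed for the 3 members with the largest deficit in SCC15 against SCC25 among those with a printable window, and for PGM1, the member with the largest excess among those that passed. Capitals mark either core on either strand, and a CACGTG counts as 2 matches of ACGTG. CA12 (chr15:63381797-63382096, minus strand) holds 0 ACGTG and 2 GCGTG, ALDOC (chr17:28576846-28577145, minus strand) 3 and 2, ERO1A (chr14:52695509-52695808, minus strand) 1 and 2, and PGM1 (chr1:63593161-63593460, plus strand) none of either, read 5′ to 3′ along each gene.
CA12: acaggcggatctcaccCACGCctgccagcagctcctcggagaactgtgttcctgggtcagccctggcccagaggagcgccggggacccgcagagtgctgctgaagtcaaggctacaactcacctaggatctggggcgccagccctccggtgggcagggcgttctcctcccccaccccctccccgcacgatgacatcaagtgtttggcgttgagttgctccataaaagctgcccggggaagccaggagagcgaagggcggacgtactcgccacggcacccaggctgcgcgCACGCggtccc
ALDOC: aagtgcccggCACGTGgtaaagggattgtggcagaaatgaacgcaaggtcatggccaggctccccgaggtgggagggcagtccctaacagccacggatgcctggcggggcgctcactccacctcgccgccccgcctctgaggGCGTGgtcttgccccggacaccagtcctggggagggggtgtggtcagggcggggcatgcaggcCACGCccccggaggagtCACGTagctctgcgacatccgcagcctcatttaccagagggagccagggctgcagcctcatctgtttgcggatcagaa
ERO1A: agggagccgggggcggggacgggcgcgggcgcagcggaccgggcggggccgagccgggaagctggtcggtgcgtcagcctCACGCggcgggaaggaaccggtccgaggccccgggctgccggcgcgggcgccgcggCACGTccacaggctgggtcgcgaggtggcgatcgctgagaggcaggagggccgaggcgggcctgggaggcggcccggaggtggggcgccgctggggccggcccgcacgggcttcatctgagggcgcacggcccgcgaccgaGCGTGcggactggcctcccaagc
PGM1: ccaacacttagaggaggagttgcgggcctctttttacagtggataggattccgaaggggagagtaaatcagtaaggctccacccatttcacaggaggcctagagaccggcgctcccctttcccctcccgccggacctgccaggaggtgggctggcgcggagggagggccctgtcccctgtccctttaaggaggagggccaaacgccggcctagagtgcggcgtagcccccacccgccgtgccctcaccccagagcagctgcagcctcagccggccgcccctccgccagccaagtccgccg

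The 16 enzymes of glycolysis and glycogen entry and the 10 hypoxia-response members were set side by side, with no test between them. Against OKF6, SCC15 had, of the enzymes, 3 higher, 2 lower and 11 that did not pass, so 31.2% differed beside 50.3% of all genes, with median log2 differences of −0.13 and 0.10. The abundant enzymes ALDOA, ENO1, TPI1, PGK1, GAPDH and PKM did not pass. The difference was 0.03 (95% interval −0.41 to 0.47) for ALDOA, 0.01 (−0.62 to 0.63) for ENO1, −0.19 (−0.65 to 0.27) for TPI1 and −0.32 (−0.95 to 0.30) for PGK1. It was −0.53 (−1.29 to 0.23) for GAPDH and −0.76 (−1.90 to 0.38) for PKM. Without OKF6 replicate 1, GAPDH passed, at −0.94 (limma, adjusted p = 0.0026). HK1, the constitutive hexokinase, was lower by −0.69 ± 0.17 (limma, adjusted p = 0.0056). ALDOC, the aldolase form of brain that is also a HIF target, read 6.77, 5.01 and 5.67 log2 CPM in OKF6 and 4.78, 2.62 and 3.50 in SCC15 +YBX1, a log2 difference of −2.18 ± 0.54 (limma, adjusted p = 0.0064). PFKL, the liver form of phosphofructokinase, was higher by 0.55 (adjusted p = 0.0486, limma), a call kept in 4 of 15 alternatives.

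PGM1, which links glycogen to glycolysis, was higher in SCC15 than in the other lines. It read 5.60, 4.97 and 4.47 log2 CPM in OKF6, 4.88, 4.47 and 4.81 in SCC25 +YBX1 and 6.83, 6.55 and 6.49 in SCC15 +YBX1. All SCC15 libraries lay above all others. The log2 difference was 1.61 ± 0.28 from OKF6 (limma, adjusted p = 0.00069) and 1.91 ± 0.28 from SCC25 (adjusted p = 0.00027). ENO2, the neuronal enolase, had 17, 29 and 0 reads in OKF6 and 312, 131 and 148 in SCC15 +YBX1. Its log2 difference of 4.64 ± 1.31 (limma, adjusted p = 0.0126) moved between 2.70 without OKF6 replicate 3, the library at 0 reads, and 5.85 over the alternatives, with the call lost without SCC15 +YBX1 replicate 1 (adjusted p = 0.056).

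GAPDH, the reference gene of the Q-PCR by which the study checked knockdown within each line, differed between the cancer lines. Its differences within a line are given with the knockdown results. GAPDH read 10.37, 11.63 and 11.58 log2 CPM in OKF6, 11.77, 11.90 and 11.67 in SCC25 +YBX1 and 10.48, 10.71 and 10.78 in SCC15 +YBX1. All SCC15 libraries were under all SCC25 libraries, and OKF6 replicate 1 was under all of these. The log2 difference of SCC15 from SCC25 was −1.12 ± 0.34 (limma, adjusted p = 0.022), a call held in 8 of 15 alternatives and lost with quantile normalization or without any 1 SCC15 or SCC25 library (largest adjusted p = 0.14). Against OKF6 it was −0.53 and did not pass, or −0.94 (limma, adjusted p = 0.0026) without OKF6 replicate 1.

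PKM, the pyruvate kinase of most dividing cells, depended on 1 OKF6 library. PKM read 12.21, 12.21 and 12.21 log2 CPM in SCC25 +YBX1, 9.82, 10.56 and 10.06 in SCC15 +YBX1, and 12.36, 10.14 and 10.22 in OKF6. SCC15 was lower than SCC25 by −2.06 ± 0.51 (limma, adjusted p = 0.0079). SCC25 against OKF6 gave 1.304 ± 0.51 and did not pass, but 2.03 ± 0.23 (limma, adjusted p = 0.00011) without OKF6 replicate 1, the library at 12.36.

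The pyruvate branch shifted between its isozymes. LDHA, the lactate dehydrogenase subunit that is a HIF target (hg38 chr11:18394560-18408425), read 11.10, 10.36 and 10.60 log2 CPM in OKF6, 9.83, 9.51 and 9.26 in SCC25 +YBX1 and 9.15, 9.34 and 9.26 in SCC15 +YBX1. All cancer line libraries lay below OKF6. The log2 difference from OKF6 was −1.44 ± 0.25 in SCC15 (limma, adjusted p = 0.00057) and −1.16 ± 0.25 in SCC25 (adjusted p = 0.0054). LDHB, the subunit of heart-type lactate dehydrogenase (hg38 chr12:21635342-21757857), went the other way, from 9.26, 8.71 and 9.26 in OKF6 to 9.62, 9.78 and 9.82 in SCC25 +YBX1 and 10.50, 10.48 and 10.45 in SCC15 +YBX1. The 3 lines did not overlap for LDHB. SCC15 was higher than OKF6 by 1.40 ± 0.21 (limma, adjusted p = 0.00024), and SCC25 by 0.66 ± 0.21 (adjusted p = 0.036), the latter in 7 of 15 alternatives (largest adjusted p = 0.12). Within a library, log2 LDHA minus log2 LDHB was 1.84, 1.65 and 1.34 in OKF6, 0.21, −0.27 and −0.55 in SCC25 +YBX1 and −1.35, −1.14 and −1.19 in SCC15 +YBX1. A scaling of all genes of a library cancels in this difference. Effects of line and medium need not cancel, and their part was not tested.

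**Figure D3:**
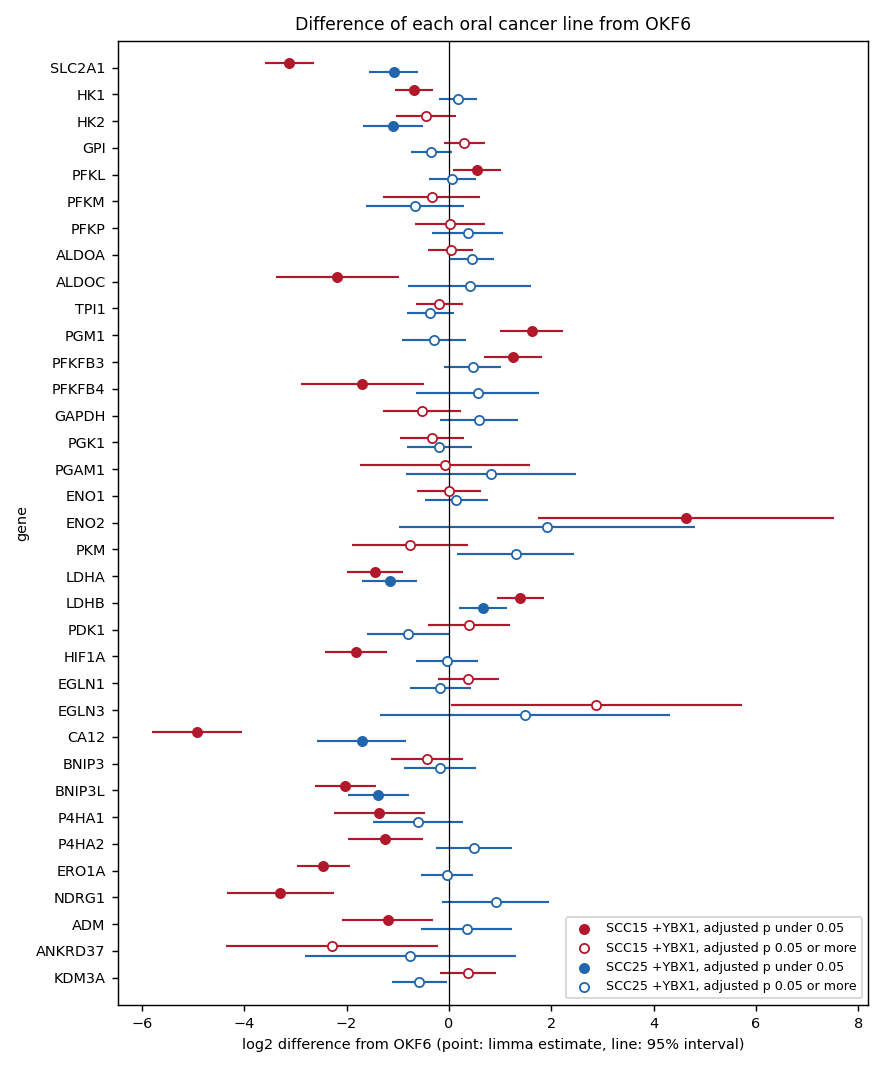
Log2 difference of SCC15 +YBX1 and SCC25 +YBX1 from OKF6 for the 35 members, as limma estimates with 95% intervals, filled where the adjusted p was under 0.05. SCC15 ranges from −4.92 for CA12 to 4.64 for ENO2, and SCC25 stays between −1.70 and 1.92.

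Between SCC25 +YBX1 and OKF6, 6 of 35 members differed, LDHB higher and CA12, BNIP3L, LDHA, HK2 and SLC2A1 lower, a share of 17.1% where 18.9% of all genes were higher and 11.3% lower. The median was −0.04 over the members and 0.13 over all genes. HK2, the inducible hexokinase, read 5.20, 5.18 and 5.97 log2 CPM in OKF6 and 4.43, 4.22 and 4.41 in SCC25 +YBX1, without overlap (log2 difference −1.10 ± 0.27, limma adjusted p = 0.0104). The count depended on OKF6 replicate 1. Without it 11 members differed (31.4%), as did 41% of all genes: LDHB, PKM, PFKP, EGLN3 and ADM higher, and CA12, BNIP3L, LDHA, HK2, SLC2A1 and PFKM lower. EGLN3 is then set against 0 reads in both remaining OKF6 libraries, so its size is not given. PFKP, the platelet form of phosphofructokinase, then differed by 0.72 (limma, adjusted p = 0.029) and PFKM, the muscle form, by −1.15 (adjusted p = 0.018). PDK1, a kinase that inhibits pyruvate dehydrogenase, differed from OKF6 by −0.80 and did not pass.

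Set directly against SCC25 +YBX1, SCC15 +YBX1 differed in 18 members, 12 lower and 6 higher, where 23.6% of all genes were lower and 20% higher. With quantiles set equal the split was 11 lower and 9 higher, beside 21.3% and 26.4% of all genes. With only these 6 libraries in the fit it was 12 and 10, beside 30.7% and 28.9% of all genes. Of the hypoxia-response members 5 were lower and 1 higher, in every scaling tried. ALDOC, at 6.35, 6.51 and 5.81 log2 CPM in SCC25 +YBX1, was lower in SCC15 by −2.59 ± 0.54 (limma, adjusted p = 0.0029). KDM3A was the 1 hypoxia-response member that was higher in SCC15. It read 5.20, 4.79 and 4.70 in SCC15 +YBX1 and 3.83, 4.09 and 3.93 in SCC25 +YBX1, a log2 difference of 0.95 ± 0.25 (limma, adjusted p = 0.0096). PDK1 read 5.59, 4.92 and 4.28 in SCC15 +YBX1 and 3.67, 3.80 and 3.72 in SCC25 +YBX1. Its difference of 1.203 ± 0.36 (limma, adjusted p = 0.020) held in 10 of 15 alternatives and was lost without SCC15 +YBX1 replicate 1 or 2 or without any 1 SCC25 library (largest adjusted p = 0.085). P4HA2 (−1.73), ADM (−1.55), HK1 (−0.87) and GPI (0.65), the isomerase that follows hexokinase, also passed. The GPI call was lost without SCC15 +YBX1 replicate 2 or 3 or SCC25 +YBX1 replicate 3 (largest adjusted p = 0.068, limma).

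The regulators of phosphofructokinase moved apart. PFKFB3 makes the activator fructose 2,6-bisphosphate, and PFKFB4 can also break it down. PFKFB3 read 5.54, 5.31 and 5.24 log2 CPM in OKF6, 5.72, 5.80 and 5.96 in SCC25 +YBX1 and 7.22, 6.33 and 6.29 in SCC15 +YBX1. It was higher in SCC15 than in OKF6 by 1.25 ± 0.26 (limma, adjusted p = 0.0020) and than in SCC25 by 0.79 ± 0.26 (adjusted p = 0.029), the latter lost without a variance trend, without SCC15 +YBX1 replicate 1 or without any 1 SCC25 library (largest adjusted p = 0.092). PFKFB4 was lower in SCC15 by −1.69 ± 0.54 against OKF6 (limma, adjusted p = 0.024), a call lost without OKF6 replicate 2 or SCC15 replicate 2 or 3 (largest adjusted p = 0.097), and by −2.25 ± 0.54 against SCC25 (adjusted p = 0.0065). Within a library, log2 PFKFB4 minus log2 PFKFB3 averaged −4.74 ± 0.53 (SD, n = 3) in SCC15 +YBX1, −1.71 ± 0.73 in SCC25 +YBX1 and −1.81 ± 0.51 in OKF6. HK2 minus HK1 averaged −3.25 ± 0.20 in SCC25 +YBX1, −1.72 ± 0.07 in SCC15 +YBX1 and −1.97 ± 0.52 in OKF6. BNIP3 minus BNIP3L was below 0 in all 3 OKF6 libraries (−0.14, −1.07 and −0.76) and above 0 in all SCC15 and SCC25 libraries. No test was made on these pairs.

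**Figure D4:**
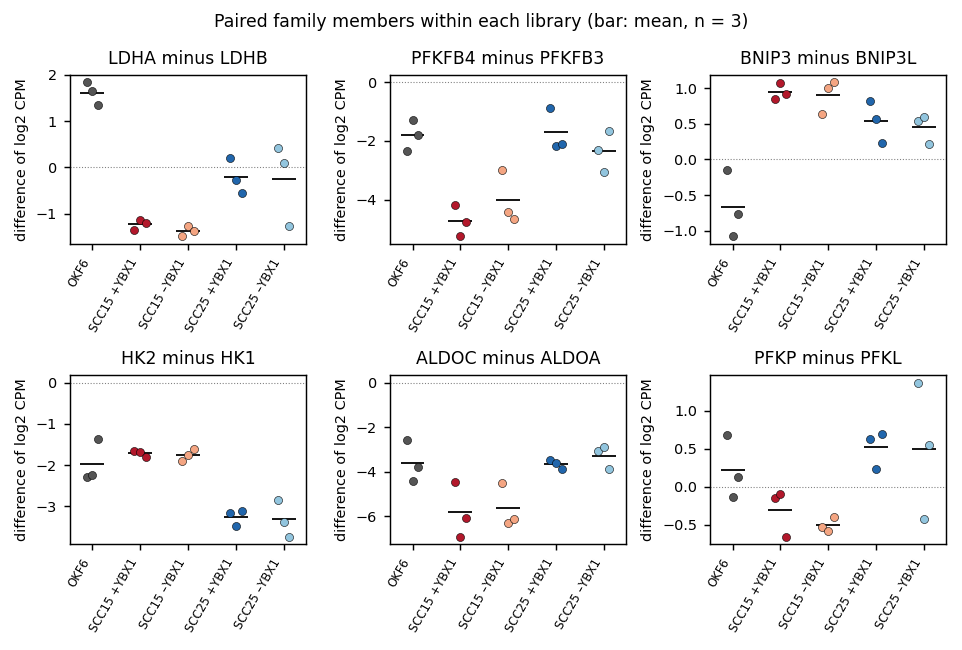
Difference of log2 CPM between the named members of 6 pairs within each library (points, with the mean of 3 as a bar) in the 5 groups. LDHA minus LDHB falls from 1.34 or more in OKF6 to −1.14 or less in SCC15 +YBX1, and HK2 minus HK1 is lowest in both SCC25 groups.

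Other genes of these pathways, from lists of 48 each, were read from the same fit. Of 36 other glycolysis and pyruvate genes measured, 13 were lower and 8 higher in SCC15 than in OKF6, and 10 lower and 5 higher in SCC25. Of 44 other hypoxia-response genes measured, 13 were lower and 6 higher in SCC15, and 12 lower and 8 higher in SCC25. The shares that differed were 58.3% and 43.2% in SCC15, beside 50.3% of all genes, and 41.7% and 45.5% in SCC25, beside 30.2%. Their medians were 0.19 and 0.06 in SCC15 and 0.01 and 0.08 in SCC25, near those of all genes. The lactate exporter SLC16A3 had 658 to 1694 reads in OKF6, 160 to 241 in SCC25 +YBX1 and 2 in each SCC15 +YBX1 library. EPAS1, the gene for HIF-2α, was lower in SCC15 than in OKF6 by −3.32 ± 0.21 (limma, adjusted p = 4.87e-07) and VEGFA, the angiogenic factor, by −1.79 ± 0.23 (adjusted p = 7.69e-05). In SCC25 their differences from OKF6 were −0.06 and 0.21 and did not pass. Not all of that list was lower in SCC15. ARNT2 had 1 to 6 reads per library in OKF6 and 99 to 146 in SCC15 +YBX1. MIF had 1334 to 3748 in OKF6 and 4196 to 9553 in SCC15 +YBX1. PDHB, a subunit of pyruvate dehydrogenase, was higher in SCC15 than in OKF6 by 1.499 (limma, adjusted p = 0.00020) and than in SCC25 by 2.10 (adjusted p = 2.23e-05). After knockdown 0 genes of either list passed.

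To ask whether these genes differ after knockdown of YBX1 by doxycycline, –YBX1 was compared with +YBX1 in each line. YBX1 itself, a DNA- and RNA-binding protein, read 5.11, 5.56 and 6.00 log2 CPM in SCC15 +YBX1 and 3.36, 3.71 and 3.13 in SCC15 –YBX1. With YBX1, SCC25 read 6.74, 6.31 and 6.62, and after knockdown 5.26, 4.70 and 3.65. The groups did not overlap in either line, so the labels held. The log2 difference averaged over both lines was −2.08 ± 0.24 (limma, adjusted p = 0.0103), and YBX1 was the 1 gene of the table to pass (0.0077%). This call held in 13 of 20 alternatives. It was lost without a variance trend (adjusted p = 0.14, limma, the largest), without SCC15 +YBX1 replicate 2 or 3, SCC15 –YBX1 replicate 1 or 3, or SCC25 +YBX1 replicate 1 or 3. In SCC15 alone (−2.15, adjusted p = 0.33) and SCC25 alone (−2.01, adjusted p = 0.29) it did not pass in limma.

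In limma, with or without voom weights, no member passed in SCC15, in SCC25, averaged over both lines or in the test of a difference between lines. The share of all genes that passed was 0% in each line and 0% for the difference between lines. At an unadjusted p under 0.05, 0 of 35 members were counted in SCC15, where 2.32% of all genes were, and 1 in SCC25, where 3.09% were. Averaged over lines 1 member was counted and 2.15% of all genes, and in the difference between lines 0 members and 2.26%. The median log2 difference of the members was −0.09 in SCC15 and 0.05 in SCC25.

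The member counted was EGLN1, the chief oxygen sensor among HIF prolyl hydroxylases (hg38 chr1:231363751-231422287). EGLN1 read 4.20, 4.17 and 4.51 log2 CPM in SCC25 +YBX1 and 4.70, 4.68 and 4.79 in SCC25 –YBX1. With YBX1, SCC15 stood at 4.74, 5.01 and 4.76, and after knockdown at 5.17, 5.09 and 5.09. It was higher in 6 of 6 same-numbered pairs, and the groups did not overlap in either line. Of all genes, 11% in SCC25 and 12.4% in SCC15 were higher in 3 of 3 pairs. EGLN1 was picked for its small p, so the pairs and the lack of overlap add no support. The log2 difference was 0.43 ± 0.18 in SCC25, 0.28 ± 0.18 in SCC15 and 0.35 ± 0.13 averaged, with adjusted p of 0.9998, 0.9999 and 0.9999 (limma), so it failed the correction.

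HIF1A read 7.67, 8.03 and 7.43 log2 CPM in SCC25 –YBX1 and 5.61, 5.63 and 5.55 in SCC15 –YBX1, overlapping the +YBX1 libraries in both lines. Within same-numbered pairs it was higher in 3 of 3 in SCC25 (0.32, 0.30 and 0.08) and in 1 of 3 in SCC15. It differed after knockdown by 0.23 (95% interval −0.14 to 0.61) in SCC25 and −0.10 (−0.47 to 0.28) in SCC15. GAPDH, at 11.39, 11.91 and 11.92 log2 CPM in SCC25 –YBX1 and 10.42, 10.84 and 10.67 in SCC15 –YBX1, differed by −0.04 (−0.49 to 0.41) and −0.02 (−0.47 to 0.43). PKM had the next smallest p averaged over lines. It read 12.36, 11.87 and 11.63 in SCC25 –YBX1 and 9.05, 10.09 and 9.95 in SCC15 –YBX1, an averaged log2 difference of −0.35 (−0.79 to 0.08). PFKFB3 had the smallest p in SCC15, with values of 6.28, 6.07 and 6.22 after knockdown, a difference of −0.42 (−0.96 to 0.11). In SCC25 PFKFB3 read 6.17, 5.43 and 6.11 after knockdown and differed by 0.08, and the difference between lines was 0.50 (−0.25 to 1.26).

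Same-numbered libraries of a line deviated together, though some +YBX1 libraries only slightly more than with other-numbered –YBX1 libraries. The differences are therefore also described within same-numbered pairs (plot of knockdown differences by replicate number). In SCC15, 5 of 35 members were higher after knockdown in pair 1, with a median log2 difference of −0.47, against 22 in pair 2 (0.13) and 15 in pair 3 (−0.04). The median over all genes in pair 1 was −0.01. In SCC25 the counts were 16, 28 and 21, with medians of −0.06, 0.29 and 0.12. In SCC25, 7 members (HK1, PFKM, HIF1A, EGLN1, BNIP3L, ERO1A and NDRG1) were higher in 3 of 3 pairs and 0 lower in 3 of 3, where 11% of all genes were higher and 11.5% lower. In SCC15, 3 members were higher in 3 of 3 (PFKFB4, EGLN1 and CA12) and 7 lower, beside 12.4% and 15.9% of all genes. The 7 lower members were SLC2A1, GPI, PGM1, PFKFB3, PKM, LDHA and ADM. The summed level of 8 interferon-stimulated genes was 2084, 3385 and 848 CPM in SCC25 –YBX1 replicates 1 to 3 and 821 to 952 CPM in SCC25 +YBX1, so it was highest in the library of the pair with 28 members higher. Of the SCC25 libraries, the keratinocyte marker sum was also highest there, at 31370 CPM against 20800 CPM in its +YBX1 pair, and the sum of the 9 measured mesenchymal markers was lowest, at 1829 CPM against 2897 CPM. The part of these in the result was not tested.

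**Figure D5:**
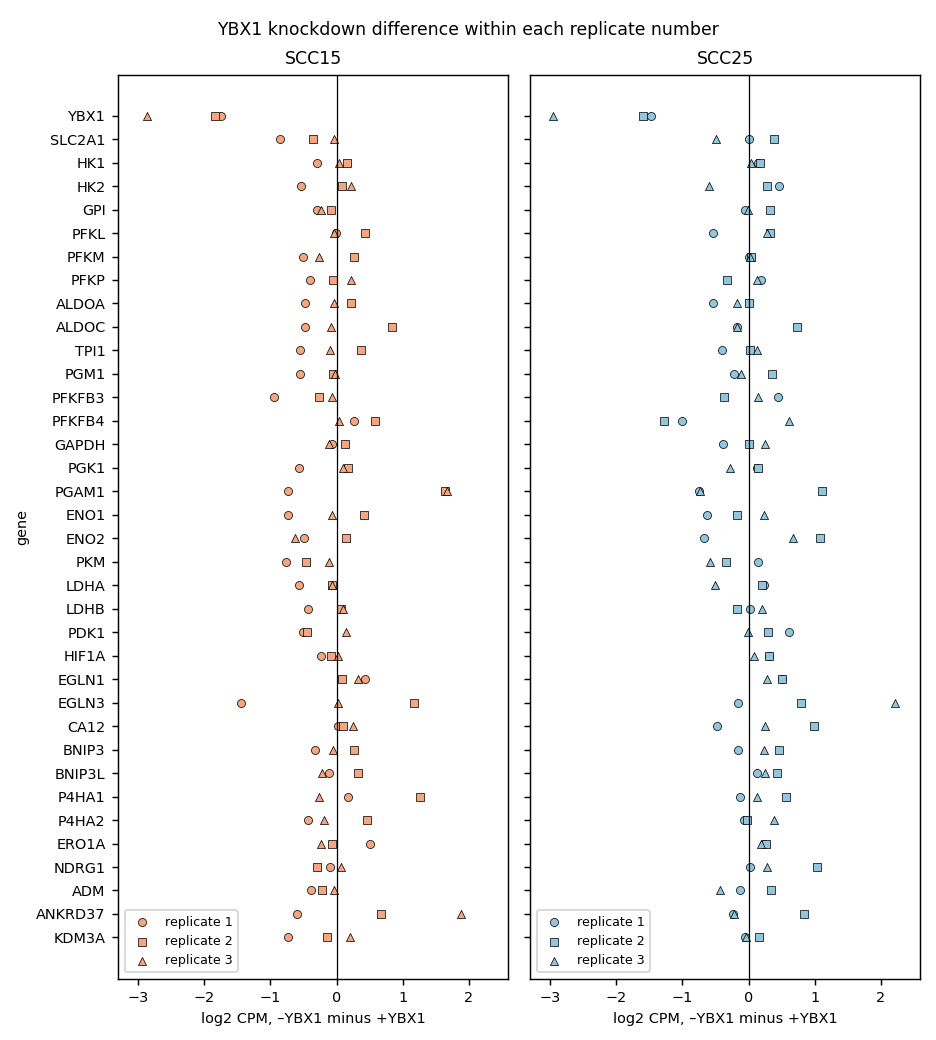
Log2 CPM of –YBX1 minus +YBX1 within each replicate number for YBX1 and the 35 members, in SCC15 (left) and SCC25 (right). YBX1 falls in all 6 pairs, EGLN1 is above 0 in all 6, and most members lie left of 0 in replicate 1 of SCC15 and right of 0 in replicate 2 of SCC25.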

How the data were processed

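The authors prepared QuantSeq 3′ FWD libraries, used Cutadapt for trimming, HISAT2 for alignment to the hg38 genome and featureCounts for counting, then limma for normalization and filtering. The deposited values are log2 CPM (log2 of the count plus 0.5 reads over the normalised library size), in separate files for the lines and for the knockdown, with values of the shared libraries equal within 5e-08. Taking the lowest value of a library as 0 reads returned whole reads (within 0.01) for 100% of values. A read was worth 0.138 to 0.226 CPM, and such depths cover counting error only. The filter already in the tables could not be undone.

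Groups were taken from the labels and tested in R 4.3.3 by limma 3.58.1 (eBayes with trend after lmFit), two-sided, Benjamini-Hochberg over all 12995 genes, threshold 0.05, all groups of a table in 1 fit. SE and intervals (95%) are those of limma, ± is SE unless SD is named, and fold changes are on the scale with 0.5 reads added. Simulated libraries with known changes were used to test the code.

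The members and gene lists were chosen with earlier results of these data known. Values in every library are given for the members called in a comparison with the 3 highest and 3 lowest log2 differences, the 2 members of smallest p in a knockdown comparison without calls, HIF1A, GAPDH and YBX1. ERO1A, HK2, PKM, EGLN3, and PFKFB3 in the cell lines, with the other pathway genes named, were added after values were seen. Same-numbered libraries of a line deviated together (correlations of deviations from the group mean 0.221 to 0.514 in SCC15 and 0.143 to 0.462 in SCC25, 6497 genes). Each was above the largest correlation of its +YBX1 library with an other-numbered –YBX1 library. The reverse, each –YBX1 library against other-numbered +YBX1 libraries, was not checked. The margin was narrow in SCC15 replicates 2 (0.354 against 0.316) and 3 (0.221 against 0.176) and in SCC25 replicate 1 (0.143 against 0.0996). Pairing of the knockdown samples by number is thus not established, and counts by pair are descriptions. Between lines in the cell line table the correlations were −0.207 to 0.26, which overlaps the range within lines. The alternatives tried were leaving out each library, a replicate block, fitting the compared groups alone, quantile normalization, setting library medians equal, voom weights, 2 reads added, a filter at the first quartile of expression, robust empirical Bayes and eBayes without a trend.

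Shared 3′ sequence was read by mapping 75-base pieces, every 5 bases of the last 500 of the canonical GENCODE transcript, to hg38 with minimap2 2.31-r1302. Figures used matplotlib 3.10.9 in Python 3.11.15.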

Additional observations from a re-analysis of the deposited data

How the results depend on the processing

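No member called between lines reversed direction in any of 15 alternatives, and no knockdown comparison gave a member in any. Leaving out 1 library each gave 15 to 20 members for SCC15 against OKF6, 5 to 11 for SCC25 against OKF6 (11 without OKF6 replicate 1) and 14 to 17 for SCC15 against SCC25. Blocking on the replicate number gave 18, 6 and 18 members between lines, where samples share only a number, and 0 in each knockdown comparison, so the replicate block changed no count by over 1.5 times. Setting library medians equal moved the all-gene median from 0.10 to 0.26 for SCC15 against OKF6 and from −0.01 to 0.14 for SCC15 against SCC25.

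Values near 0 changed sign without a call. With quantile normalization the knockdown difference of GAPDH was 0.051 in SCC25, 0.0017 in SCC15, 0.026 averaged and 0.049 between lines. Leaving out 1 library each, GAPDH ranged from −0.13 to 0.13 in SCC25, −0.12 to 0.094 in SCC15, −0.081 to 0.057 averaged and −0.14 to 0.15 between lines. HIF1A ranged from −0.011 to 0.14 for the averaged knockdown and from −0.23 to 0.30 for SCC25 against OKF6, with 0.30 without OKF6 replicate 1. The difference of the YBX1 change between lines ranged from −0.22 to 0.58. The cause was not tested.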

Other observations

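Of the 10 hypoxia-response members, replicate 1 held the highest value for 7 in OKF6, 8 in SCC15 +YBX1, 8 in SCC15 –YBX1 and 7 in SCC25 +YBX1. In SCC25 –YBX1 it was replicate 2, for 8. Over all 6497 genes compared, those libraries were the highest for 48.5%, 34.2%, 34%, 31.4% and 32.4%. This was seen in the data and not tested.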
